A study of Homo sapiens with 7 samples.

Results

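H3K4me3 (histone H3 with 3 methyl groups on lysine 4, a mark of active and poised promoters) was examined at 10 genes with roles in signalling, chromatin and the nervous system: TLE4, ASXL3, AUTS2, WNT5A, ADAMTS1, HUNK, MAST4, PDE10A, SDK2 and KLHL14. Each gene was represented by the listed regions that overlap 5 kb either side of a point at its start in hg19. Every window held 1 region, so the set is 10 of the 30840 regions with values. The cells were HCT116, a human colon cancer line, with the genotype KDM5A-/-, grown in medium with G418. They were transfected with mutant KDM5A, with wild-type KDM5A or with an empty vector and fixed 24 h later, and each transfection gave 1 H3K4me3 chromatin immunoprecipitation (ChIP-seq) library. All 3 groups thus lack the cells' own KDM5A, and the residues that the mutant changes are not given in these sources. No annotation of hg19 was used here, so markers of colon cells and other genes of the same families were not examined, and the roles named for the genes are general knowledge.

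The genes were chosen by their low ratios to the empty vector in these same libraries. By the log2 ratio of RPM plus 0.7 (RPM is reads scaled to a library total of 1000000), TLE4 and ADAMTS1 ranked 1 and 2 from the lowest among the 10887 regions with a mean of 20 RPM or more, in both comparisons with the empty vector. Among the 15420 regions no weaker than the median region (by mean RPM), ASXL3, KLHL14, AUTS2 and MAST4 ranked 4, 5, 7 and 8 with wild-type KDM5A, and HUNK, WNT5A, PDE10A and SDK2 ranked 2, 3, 7 and 8 with mutant KDM5A. At the edge of these picks, MAST4 had a log2 ratio of −1.14 with wild-type KDM5A and the next region, on chromosome 2, also −1.14. SDK2 had −1.28 with mutant KDM5A and the next region, on chromosome 6, also −1.28. The ratios to the empty vector below are therefore a description of what was picked and are no evidence of an effect of KDM5A. With 1 library per group there was no replicate check and no test, and each interval is a 95% interval for counting error.

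KDM5A is a demethylase that removes methyl groups from lysine 4 of histone H3. Its ARID domain is known to bind DNA with the letters CCGCCC, and the enzyme is found at many promoters rich in CpG, where SET1 and MLL complexes deposit H3K4me3. In cells that do not express them, promoters of developmental and neuronal genes often carry a broad, low level of H3K4me3 together with Polycomb marks.

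The promoter windows of these genes are shown because the regions lie at their starts and because their CpG content and copies of the ARID letters differ. RefSeq windows of GRCh38.p14, from 250 bases before to 50 after a start, were matched by symbol for 7 of the 10 genes, with 13 starts. Since the values are on hg19, a window is tied to its region by gene name alone. The windows of AUTS2 (chr7:69598225-69598524, plus strand), ASXL3 (chr18:33577969-33578268, plus strand) and HUNK (chr21:31872770-31873069, plus strand), which have 1 start each, and the first listed starts of TLE4 (chr9:79571715-79572014, plus strand) and WNT5A (chr3:55487257-55487556, minus strand) read 5′ to 3′ as follows, with CCGCCC or its complement GGGCGG in capitals.
AUTS2: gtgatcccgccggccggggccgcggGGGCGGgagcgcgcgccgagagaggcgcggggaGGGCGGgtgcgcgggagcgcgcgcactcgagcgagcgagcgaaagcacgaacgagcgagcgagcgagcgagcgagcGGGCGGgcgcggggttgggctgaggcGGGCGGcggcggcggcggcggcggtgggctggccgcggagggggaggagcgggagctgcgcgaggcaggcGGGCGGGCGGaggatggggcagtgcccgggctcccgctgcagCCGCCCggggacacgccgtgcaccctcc
ASXL3: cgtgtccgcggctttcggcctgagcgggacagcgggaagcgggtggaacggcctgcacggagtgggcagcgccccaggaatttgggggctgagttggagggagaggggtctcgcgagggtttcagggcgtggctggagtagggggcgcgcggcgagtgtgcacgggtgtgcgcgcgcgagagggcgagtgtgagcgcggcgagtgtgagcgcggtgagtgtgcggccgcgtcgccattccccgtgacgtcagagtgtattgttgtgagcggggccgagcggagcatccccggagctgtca
HUNK: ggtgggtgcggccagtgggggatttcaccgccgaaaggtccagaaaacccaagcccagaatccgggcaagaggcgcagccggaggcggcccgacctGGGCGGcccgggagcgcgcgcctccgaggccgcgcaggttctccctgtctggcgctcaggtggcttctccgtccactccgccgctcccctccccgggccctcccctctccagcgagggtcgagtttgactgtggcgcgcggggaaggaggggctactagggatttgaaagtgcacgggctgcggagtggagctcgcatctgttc
TLE4: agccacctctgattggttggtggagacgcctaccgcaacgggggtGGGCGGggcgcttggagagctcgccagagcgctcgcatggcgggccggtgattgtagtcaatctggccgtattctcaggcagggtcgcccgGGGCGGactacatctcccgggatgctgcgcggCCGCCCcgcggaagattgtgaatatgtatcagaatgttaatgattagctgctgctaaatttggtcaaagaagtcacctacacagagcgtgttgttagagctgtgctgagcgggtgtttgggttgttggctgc
WNT5A: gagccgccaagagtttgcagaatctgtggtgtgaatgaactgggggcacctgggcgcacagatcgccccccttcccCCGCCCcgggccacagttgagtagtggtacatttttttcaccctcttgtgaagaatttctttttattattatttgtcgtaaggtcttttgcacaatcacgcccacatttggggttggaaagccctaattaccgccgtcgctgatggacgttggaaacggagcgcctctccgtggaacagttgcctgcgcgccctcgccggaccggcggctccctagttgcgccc

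The letters CCGCCC, on either strand, occurred 7 times in the AUTS2 window, 3 times in that of TLE4, 1 time each in those of HUNK and WNT5A and not in that of ASXL3. GGGCGG is also the core of the GC box that Sp1 binds, so that the letters do not tell the factors apart. Over the 7 genes, 9 of 13 windows (69.2%) held the letters, against 44.95% of the 35116 RefSeq windows. A gene with several starts counts several times here, and 4 of the 13 windows are those of MAST4. They begin at 66596143, 66828523, 66958823 and 67004405 on chromosome 5, so they cannot all lie at its 1 region. Nothing is read from the share for that reason. The AUTS2 window had 55 CpG, that of ASXL3 38 and that of HUNK 29, while the first listed windows of TLE4 and WNT5A had 22 and 21. The second listed windows of TLE4 and WNT5A, not shown, had 39 and 22 CpG, with 3 and 0 copies of the letters. The median of the 13 windows, which include all starts of MAST4, was 29 CpG and that of all windows 14.

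Across the 10 regions H3K4me3 was lower with either form of KDM5A than with the empty vector. The summed signal was 72.3 RPM (716 reads) with mutant KDM5A, 84.3 RPM (915 reads) with wild-type KDM5A and 165 RPM (1770 reads) with the empty vector. Set against the empty vector it was 2.29-fold lower with the mutant (2.09 to 2.497) and 1.96-fold lower with wild-type KDM5A (1.81 to 2.12). Each of the 10 regions was at least 1.5-fold lower in both comparisons on the log2 scale with the pseudocount. Past that threshold were 8.15% of all regions with the mutant and 6.53% with wild-type KDM5A. Among the 4232 other regions with a mean of 5 to 20 RPM, where 7 of the 10 fall, 6.47% and 3.14% were past it in the same order, and among the 10885 other regions of 20 RPM or more, 0.413% and 0.0276%. Nothing is read from these counts, since low ratios chose the genes. The regions as a whole lay below the empty vector under scaling by total reads, with a median log2 ratio of −0.18 with the mutant and −0.11 with wild-type KDM5A. Scaling to a median ratio of 1 took these medians to 0.034 and 0.024, and 9 of the 10 with the mutant and 8 with wild-type KDM5A were then past 1.5-fold (90% and 80%), against 5.02% of all regions in both.

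**Figure D1:**
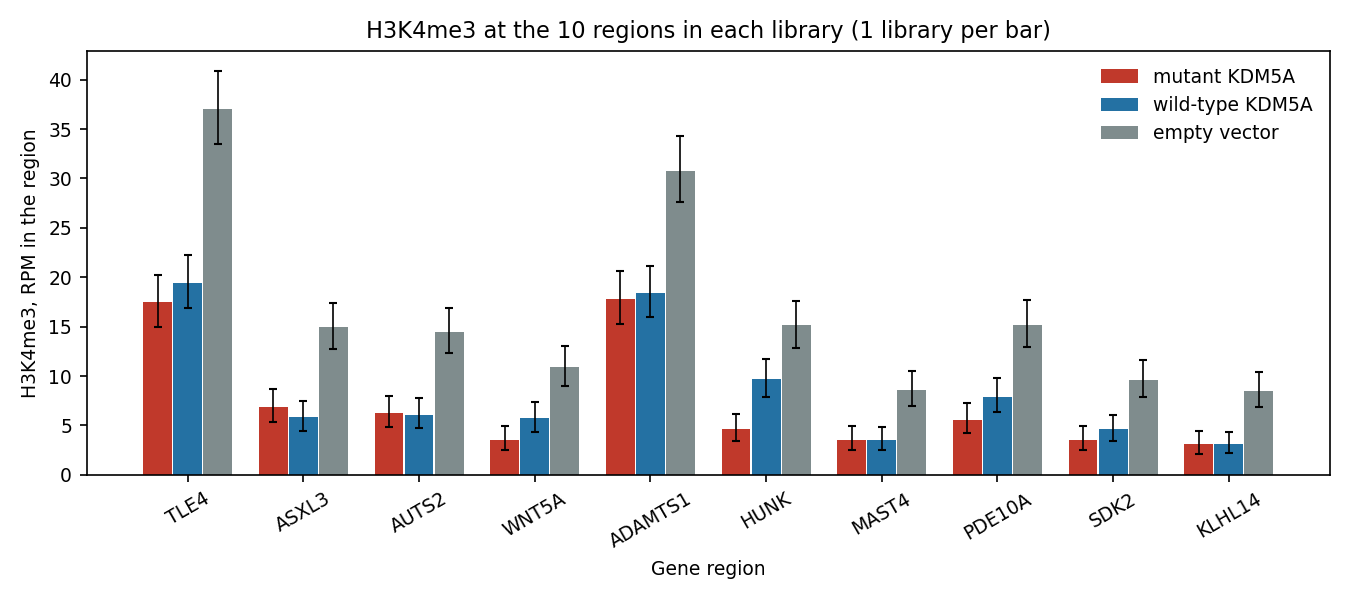
H3K4me3 in RPM (y axis) at the region of each gene (x axis) in the library with mutant KDM5A (red), wild-type KDM5A (blue) and the empty vector (grey); bars are single libraries and error bars exact Poisson 95% intervals for counting error. TLE4 and ADAMTS1, with 37.1 and 30.8 RPM under the empty vector, stand above the other 8, and the grey bar is the highest of its 3 at each gene.

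Among regulators of transcription and chromatin, TLE4, a Groucho family corepressor that works with TCF/LEF factors of the Wnt pathway, had 17.5 RPM under mutant KDM5A, 19.4 RPM under wild-type KDM5A and 37.1 RPM under the empty vector. The mutant and wild-type libraries were close to each other and both far below the empty vector library. This was 2.12-fold lower with the mutant (1.77 to 2.55) and 1.91-fold lower with wild-type KDM5A (1.61 to 2.26). The region lies at chromosome 9, 82185140 to 82189116, and had the most reads of the 10 with wild-type KDM5A (211) and with the empty vector (397). ASXL3, a relative of Drosophila Additional sex combs that takes part in the BAP1 deubiquitinase complex, had 6.86 RPM under mutant KDM5A, 5.81 RPM under wild-type KDM5A and 14.9 RPM under the empty vector. Its region, at chromosome 18, 31157559 to 31159561, was 2.18-fold lower with the mutant (1.63 to 2.93) and 2.57-fold lower with wild-type KDM5A (1.91 to 3.501). AUTS2, which takes part in a Polycomb complex in neurons and is linked to neurodevelopmental disorders, had 6.26 RPM under mutant KDM5A, 6.08 RPM under wild-type KDM5A and 14.5 RPM under the empty vector. At chromosome 7, 69062197 to 69065638, this was 2.31-fold lower with the mutant (1.71 to 3.16) and 2.38-fold lower with wild-type KDM5A (1.77 to 3.22). In these 3 genes the mutant and the wild-type value lay within counting error of each other.

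Among secreted proteins, WNT5A, a Wnt ligand that mostly acts outside the beta-catenin pathway, had 3.53 RPM under mutant KDM5A, 5.71 RPM under wild-type KDM5A and 10.9 RPM under the empty vector. The mutant library was lowest and the empty vector library highest. This region, at chromosome 3, 55519408 to 55522435, was 3.09-fold lower with the mutant (2.103 to 4.65) and 1.91-fold lower with wild-type KDM5A (1.39 to 2.64). ADAMTS1, a metalloprotease that cleaves proteoglycans of the extracellular matrix, had 17.8 RPM under mutant KDM5A, 18.4 RPM under wild-type KDM5A and 30.8 RPM under the empty vector. Its region, at chromosome 21, 28214161 to 28219231, is the widest of the 10 at 5071 bp. It was 1.73-fold lower with the mutant (1.44 to 2.09), the smallest fold reduction of the 10 in that comparison, and 1.67-fold lower with wild-type KDM5A (1.40 to 2.00).

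The enzymes of signalling inside the cell were picked on different comparisons, HUNK and PDE10A with mutant KDM5A and MAST4 with wild-type KDM5A. How the mutant stood to wild-type KDM5A in them is thus not independent of the pick. HUNK, a kinase related to AMPK, had 4.64 RPM under mutant KDM5A, 9.68 RPM under wild-type KDM5A and 15.1 RPM under the empty vector, so that the 3 libraries were spread apart. This region, at chromosome 21, 33244760 to 33246880, was 3.26-fold lower with the mutant (2.33 to 4.62) but 1.56-fold lower with wild-type KDM5A (1.22 to 2.02), the most and the least of the 10. PDE10A, a phosphodiesterase that breaks down cAMP and cGMP and is abundant in neurons of the striatum, had 5.55 RPM under mutant KDM5A, 7.92 RPM under wild-type KDM5A and 15.2 RPM under the empty vector. Its region, at chromosome 6, 166074206 to 166078117, was 2.74-fold lower with the mutant (2.01 to 3.79) and 1.92-fold lower with wild-type KDM5A (1.47 to 2.52). MAST4, a kinase of the microtubule-associated family, had 3.53 RPM under mutant KDM5A, 3.502 RPM under wild-type KDM5A and 8.59 RPM under the empty vector. Here the KDM5A libraries could not be told apart, and the region, at chromosome 5, 65891808 to 65893598, was 2.43-fold lower with the mutant (1.63 to 3.70) and 2.45-fold lower with wild-type KDM5A (1.66 to 3.68).

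SDK2, an adhesion molecule of the immunoglobulin superfamily known for matching synaptic partners in the retina, had 3.53 RPM under mutant KDM5A, 4.61 RPM under wild-type KDM5A and 9.61 RPM under the empty vector. Its place is chromosome 17, 71638966 to 71641341, and it was 2.72-fold lower with the mutant (1.84 to 4.12) and 2.09-fold lower with wild-type KDM5A (1.48 to 2.99). KLHL14, a protein of the Kelch-like family, had 3.13 RPM under mutant KDM5A, 3.13 RPM under wild-type KDM5A and 8.49 RPM under the empty vector. With a mean of 4.92 RPM it is the weakest of the 10, and its 31 and 34 reads with mutant and wild-type KDM5A are the fewest. At chromosome 18, 30350968 to 30352609, it was 2.71-fold lower with the mutant (1.79 to 4.22) and 2.71-fold lower with wild-type KDM5A (1.81 to 4.15). In bulk chromatin fewer cells with the mark and less mark per cell cannot be told apart. The comparisons with the empty vector share that 1 library, so a high value there lowers both ratios.

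**Figure D2:**
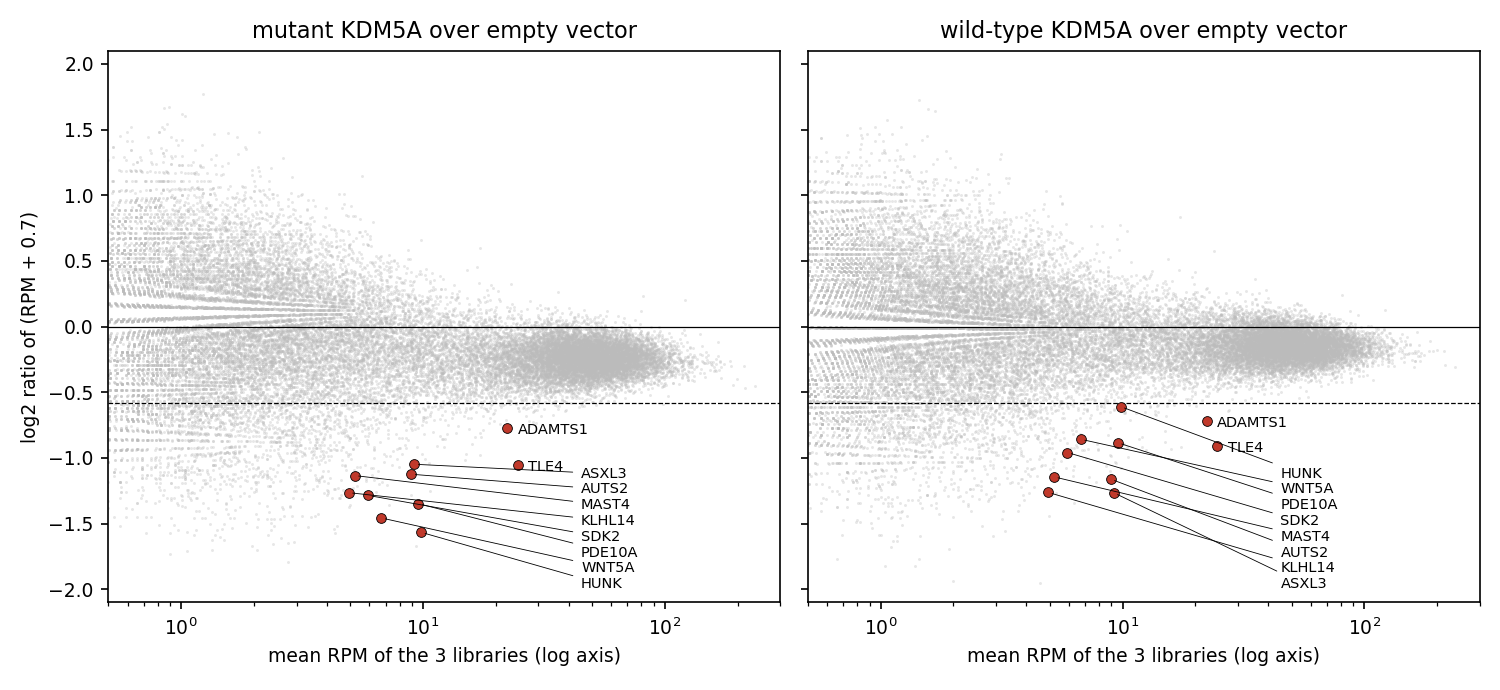
Log2 ratio of RPM plus 0.7 (y axis) against the mean RPM of the 3 libraries (x axis, log scale) for mutant KDM5A (left) and wild-type KDM5A (right) over the empty vector; grey points are the other regions, red points the 10 gene regions, and the dashed line marks 1.5-fold lower. All 10 lie under the dashed line in both panels, with medians of −1.20 and −0.93 from left to right, against −0.18 and −0.11 over all regions.

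The third comparison, mutant against wild-type KDM5A, leaves out the empty vector library. Over the 10 regions the sum was 72.3 RPM under mutant KDM5A against 84.3 RPM under wild-type KDM5A, 1.17-fold lower (1.06 to 1.29). With the libraries scaled to a median ratio of 1, the ratio of these sums was 0.915. No interval was made for that scaled ratio, so the interval below 1 holds for RPM only. HUNK was 2.08-fold lower with the mutant (1.46 to 3.015), WNT5A 1.62-fold lower (1.05 to 2.52) and PDE10A 1.43-fold lower (1.01 to 2.04), and these are the 3 genes whose interval lies wholly below 1. So did that of 10.8% of all regions and 8.65% of the other regions of 5 to 20 RPM. When the libraries were scaled to a median ratio of 1 in place of RPM, this held for HUNK (ratio 0.512, 0.354 to 0.731) but not for WNT5A (0.660, 0.423 to 1.02) or PDE10A (0.748, 0.523 to 1.06). All 3 were picked for low values with the mutant, as was SDK2, at 1.30-fold lower (0.830 to 2.07), so these ratios are not independent of the pick. The 4 genes picked with wild-type KDM5A had ratios whose intervals include 1. Mutant over wild-type KDM5A gave a ratio of 1.18 for ASXL3 (0.827 to 1.69), 1.03 for AUTS2 (0.716 to 1.48), 1.01 for MAST4 (0.619 to 1.64) and 0.999 for KLHL14 (0.594 to 1.67). TLE4, at 0.898 (0.730 to 1.10), and ADAMTS1, at 0.964 (0.783 to 1.19), which was 1.03 with the other scaling, were picked on both forms. With the pseudocount, 2 of the 10, HUNK and WNT5A, were at least 1.5-fold lower with the mutant, where 5.45% of all regions and 1.84% of the other regions of 5 to 20 RPM were, and none of the other regions of 20 RPM or more (0%). The median log2 ratio of the 10 was −0.10 and that of all regions −0.077. HUNK ranked 1 from the lowest among the same 15420 regions.

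**Figure D3:**
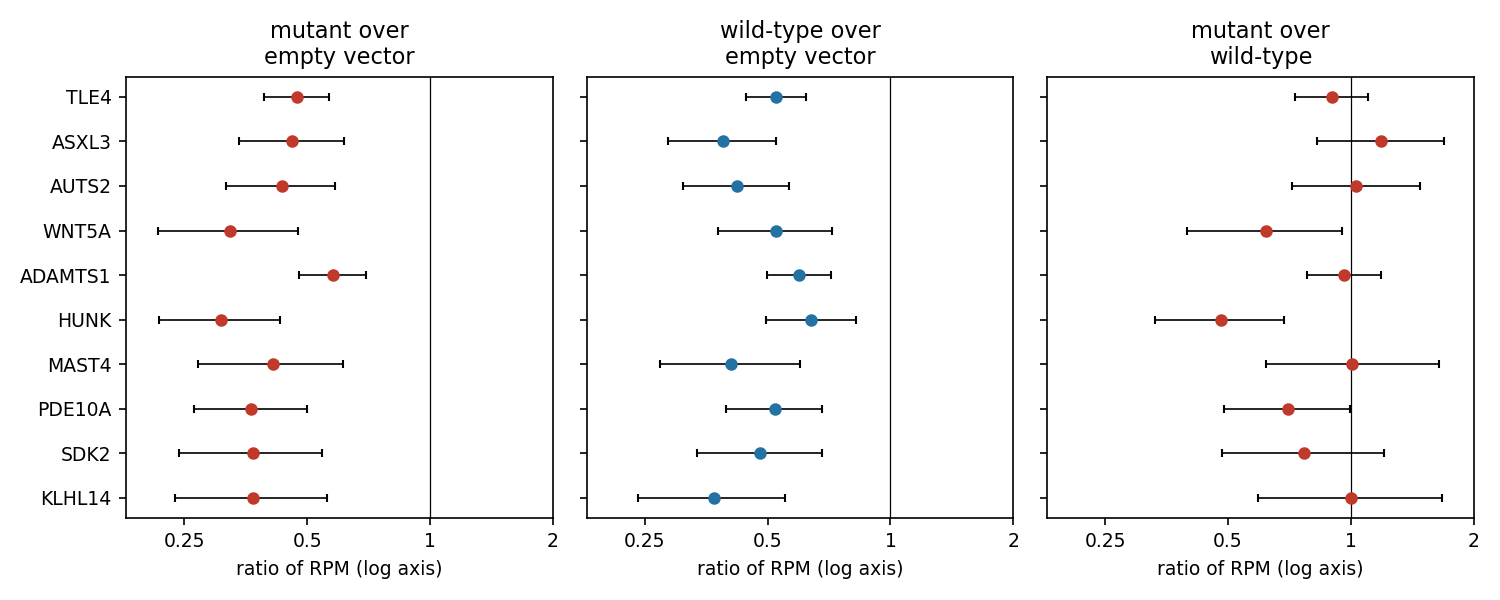
Plain ratio of RPM (x axis, log scale) at each gene region (rows) for mutant KDM5A over the empty vector, wild-type KDM5A over the empty vector and mutant over wild-type KDM5A; bars are exact conditional 95% intervals for counting error. Every interval ends below 1 for mutant and for wild-type KDM5A over the empty vector, where those of 31.7% and 20.1% of all regions do, and for mutant over wild-type KDM5A those of HUNK, WNT5A and PDE10A do.

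The regions stand alone in the genome. Neither spacing nor width was a criterion of the pick, but low ratios to the empty vector were. Such ratios were more frequent among wide, lone regions of 5 to 20 RPM, as given below. Spacing and width are therefore not independent of the pick. None of the 10 had another listed region within 100 kb, while 8.24% of all regions and 7.47% of the other regions of 5 to 20 RPM had none. The distance to the nearest listed region ran from 119 kb at ADAMTS1 to 995 kb at AUTS2, with a median of 306 kb, against 13.9 kb over all regions. WNT5A, at 979 kb, was nearly as far from any other region as AUTS2. In width, 8 of 10 spanned 2 kb or more, against 34.1% of all regions, 24.6% of the other regions of 5 to 20 RPM and 85.2% of those of 20 RPM or more. Their median width was 2702 bp, where the other regions of 5 to 20 RPM had 1540 bp and those of 20 RPM or more had 2675 bp. The narrowest were KLHL14 with 1642 bp and MAST4 with 1791 bp.

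Levels of different genes are compared here as signal per length. With mutant KDM5A the 10 regions had a median of 1.94 RPM per kb, with wild-type KDM5A 1.99 and with the empty vector 4.98 RPM per kb. The other regions of 5 to 20 RPM had medians of 5.92, 6.35 and 6.92 RPM per kb in the same order, and all regions 4.30, 4.38 and 4.61 RPM per kb. In the empty vector library the median of the 10 was not below that of all regions. That library is the reference of the ratios that chose the genes, so the pick favours high values in it. Nothing is read from this. The 87 other regions of 5 to 20 RPM that span 2 kb or more and have none within 100 kb had 3.75, 3.74 and 5.39 RPM per kb in that order. In the empty vector library, which has the highest values, TLE4 was the densest with 9.32 RPM per kb, followed by ASXL3 with 7.46 and HUNK with 7.13 RPM per kb. WNT5A was the least dense with 3.61 RPM per kb, and PDE10A had 3.89 and SDK2 4.05 RPM per kb. Over the mean of the 3 libraries, TLE4 (6.20 RPM per kb) and ADAMTS1 (4.40 RPM per kb) were less dense than all but 0.367% and 0.0551% of the other regions of 20 RPM or more. WNT5A, with 2.22 RPM per kb, was less dense than all but 1.63% of the other regions of 5 to 20 RPM. That mean includes the low values with KDM5A that the pick used.

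Regions of the same kind that were not picked were set beside them. Among the 87 other regions of 5 to 20 RPM described above, wide and with none within 100 kb, 36.8% were at least 1.5-fold lower with mutant KDM5A and 29.9% with wild-type KDM5A than with the empty vector. Among the 956 of the same level and width that have another region within 100 kb, the shares were 7.43% and 4.18%. Of the 10 genes, 6 fall in the class of 87 (ASXL3, AUTS2, WNT5A, HUNK, PDE10A and SDK2) and are not counted in it. The median log2 ratio of these 87 was −0.47 with the mutant and −0.35 with wild-type KDM5A, while that of the 956 was −0.12 and −0.041. With scaling to a median ratio of 1 the medians of the 87 were −0.25 and −0.21, those of the 956 turned to 0.10 and 0.094, and 27.6% and 17.2% of the 87 were past 1.5-fold against 3.45% and 3.35% of the 956. Mutant KDM5A was at least 1.5-fold below wild-type KDM5A in 1.15% of the regions of each class. Lone regions of 1 to 2 kb at that level were past 1.5-fold in 8.85% and 1.56% of cases with mutant and wild-type KDM5A. Among lone regions of 20 RPM or more, 0.273% and 0% were. These classes were defined after the data were seen, and regions are not replicates.

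**Figure D4:**
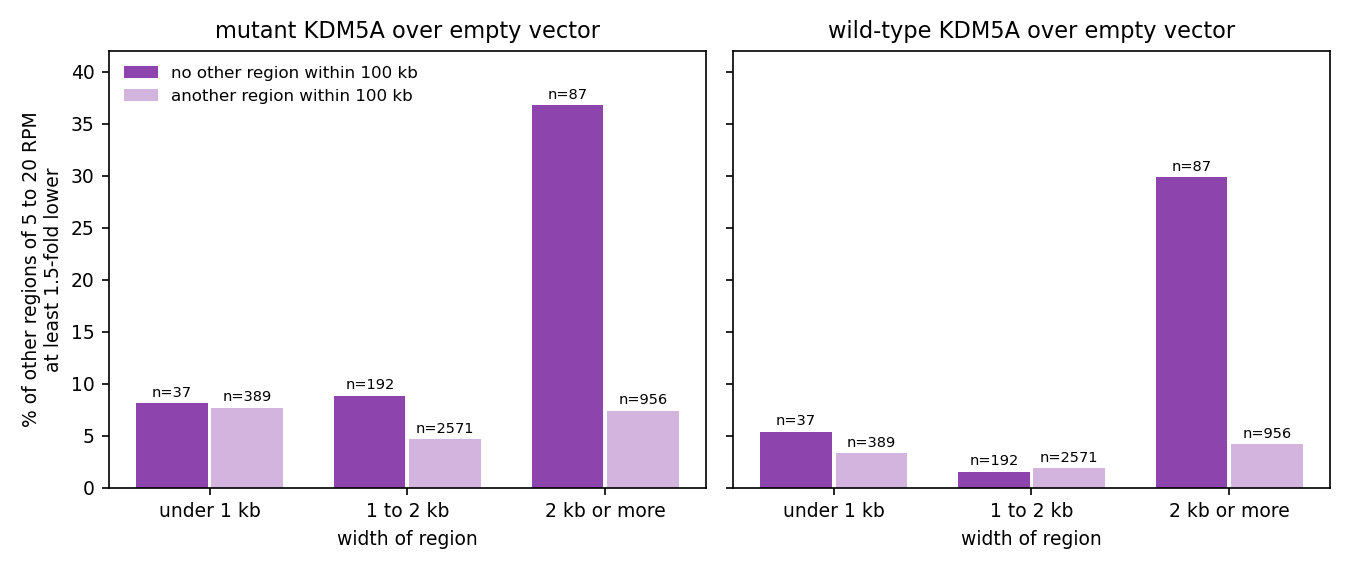
Percentage of the other regions of 5 to 20 RPM that were at least 1.5-fold lower (y axis) with mutant KDM5A (left) and wild-type KDM5A (right) than with the empty vector, by width (x axis), for regions with none (dark) and with another (light) listed region within 100 kb; n is the number of regions and the 10 gene regions are left out. The dark bars at 2 kb or more, 36.8% and 29.9%, are the highest of their panels.

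Since no neighbour lay within 100 kb, each gene region was set beside the nearest listed region on either side, at any distance. These 20 flanking regions were not used to choose the genes. Their sum was 198 RPM under mutant KDM5A, 222 RPM under wild-type KDM5A and 249 RPM under the empty vector, which is 1.26-fold lower with the mutant (1.19 to 1.33) and 1.12-fold lower with wild-type KDM5A (1.06 to 1.19). Strong flanks, of 20 RPM or more, carry most of that sum and lay close to the empty vector. The flank of HUNK on the left, at 33102443 to 33105527, had 72.98 RPM under mutant KDM5A, 78.6 RPM under wild-type KDM5A and 86.4 RPM under the empty vector. That of AUTS2 on the left, at 66765766 to 66769228, likewise had 48.5 RPM under mutant KDM5A, 55.7 RPM under wild-type KDM5A and 59.7 RPM under the empty vector. Over the 4 strong flanks, which also lie beside MAST4 and KLHL14, the sum was 1.21-fold lower with the mutant (1.14 to 1.29) and 1.08-fold lower with wild-type KDM5A (1.02 to 1.15), and with scaling to a median ratio of 1 it was 0.976 of the empty vector with the mutant and 1.02, on the higher side, with wild-type KDM5A. The one on the left of KLHL14 lies at 30048828 to 30051682. It had 33.9 RPM under mutant KDM5A, 38.9 RPM under wild-type KDM5A and 41.3 RPM under the empty vector. The one beside MAST4, 405.6 kb to the right, had 19.6 RPM under mutant KDM5A, 21.9 RPM under wild-type KDM5A and 24.2 RPM under the empty vector. RefSeq lists 4 starts for MAST4, from 66596143 to 67004405 in GRCh38. This flank may thus lie at another start of MAST4 itself, which was not tested. The region taken for MAST4 stands for 1 start only.

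The 15 weak flanks, under 5 RPM, summed to 18.8 RPM under mutant KDM5A, 21.2 RPM under wild-type KDM5A and 30.1 RPM under the empty vector, 1.60-fold lower with the mutant (1.33 to 1.93) and 1.42-fold lower with wild-type KDM5A (1.19 to 1.69). With scaling to a median ratio of 1 the sum was 0.737 of the empty vector with the mutant and 0.780 with wild-type KDM5A. In each comparison with the empty vector 10 of the 15 had a log2 ratio below 0. So had 70.5% of all regions with the mutant and 66.7% with wild-type KDM5A. Among the other regions under 5 RPM the shares were 49.9% and 49.7%. The median log2 ratio of the weak flanks was −0.26 with the mutant and −0.29 with wild-type KDM5A, and that of the strong flanks was −0.29 and −0.12. The log2 ratios of the weak flanks ran from −1.19 to 0.64 with the mutant, so that they differed widely among themselves at few reads. The flank of TLE4 on the left, at 81871639 to 81872839, had 1.62 RPM under mutant KDM5A, 1.84 RPM under wild-type KDM5A and 4.11 RPM under the empty vector. The flank of PDE10A on the right, at 166400619 to 166402026, had 3.03 RPM under mutant KDM5A, 3.78 RPM under wild-type KDM5A and 6.25 RPM under the empty vector. Between KLHL14 and ASXL3, the flank nearest to ASXL3 (31020235 to 31021017) had 2.93 RPM under mutant KDM5A, 2.12 RPM under wild-type KDM5A and 4.95 RPM under the empty vector. The flank of ASXL3 on the right (31701081 to 31701555) went the other way with wild-type KDM5A: it had 0.202 RPM under mutant KDM5A, 1.57 RPM under wild-type KDM5A and 0.280 RPM under the empty vector, a ratio of 5.59 with wild-type KDM5A (1.62 to 29.8). The flank of ADAMTS1 on the left (27778253 to 27778585) had 1.41 RPM under mutant KDM5A, 1.38 RPM under wild-type KDM5A and 0.653 RPM under the empty vector, with ratios of 2.16 (0.817 to 6.33) and 2.12 (0.812 to 6.13) in that order. Those beside SDK2 were not lower: together they had 3.73 RPM under mutant KDM5A, 3.22 RPM under wild-type KDM5A and 3.08 RPM under the empty vector, with intervals of both ratios that include 1 (0.738 to 2.00 and 0.632 to 1.74). The 1 flank of 5 to 20 RPM, on the right of ADAMTS1 at 28338478 to 28340161, had 4.04 RPM under mutant KDM5A, 5.53 RPM under wild-type KDM5A and 7.09 RPM under the empty vector. In RefSeq the next protein-coding gene there is ADAMTS5, a relative of ADAMTS1.

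The ratio of a gene region over that of its own flanks does not depend on how the libraries were scaled. With mutant KDM5A over the empty vector it was below 1 for 9 of 10 genes, and its interval lay below 1 for 5 of them. Of the 30792 regions with a listed region on either side, 48% were below 1 and 6.33% had an interval below 1. Among the 87 wide, lone regions these shares were 71.3% and 28.7%. SDK2 was 3.28-fold lower than its flanks (1.72 to 6.32), HUNK 2.76-fold (1.95 to 3.97), KLHL14 2.24-fold (1.43 to 3.56), MAST4 1.95-fold (1.25 to 3.09) and AUTS2 1.83-fold (1.32 to 2.56). For HUNK, KLHL14, MAST4 and AUTS2 most of the flank signal is 1 strong region, 139 to 2293 kb away. Of the genes with no strong flank, only SDK2 had an interval below 1 with the mutant. Those of TLE4, ADAMTS1, ASXL3, WNT5A and PDE10A included 1. With wild-type KDM5A the ratio over flanks was below 1 for 9 genes, and the interval lay below 1 for 7, against 48.3% and 5.88% of all such regions and 70.1% and 18.4% of the 87. Those 7 include SDK2, ADAMTS1 and ASXL3, which have no strong flank. Since low ratios to the empty vector chose the genes, nothing is read from these counts. In the wild-type comparison KLHL14 was 2.57-fold lower than its flanks (1.67 to 4.02), MAST4 2.21-fold (1.44 to 3.45) and AUTS2 2.19-fold (1.59 to 3.03). The exception in both was TLE4, whose ratio over that of its weak flanks was 1.08 with the mutant (0.616 to 1.95) and 1.20 with wild-type KDM5A (0.6997 to 2.12). With mutant over wild-type KDM5A the ratio was below 1 for 5 genes, against 49.5% of all such regions. HUNK was the 1 gene whose interval lay below 1, at 1.94-fold lower than its flanks (1.34 to 2.85), while 4.13% of those regions had such an interval. These intervals do not allow for the pick of the genes.

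**Figure D5:**
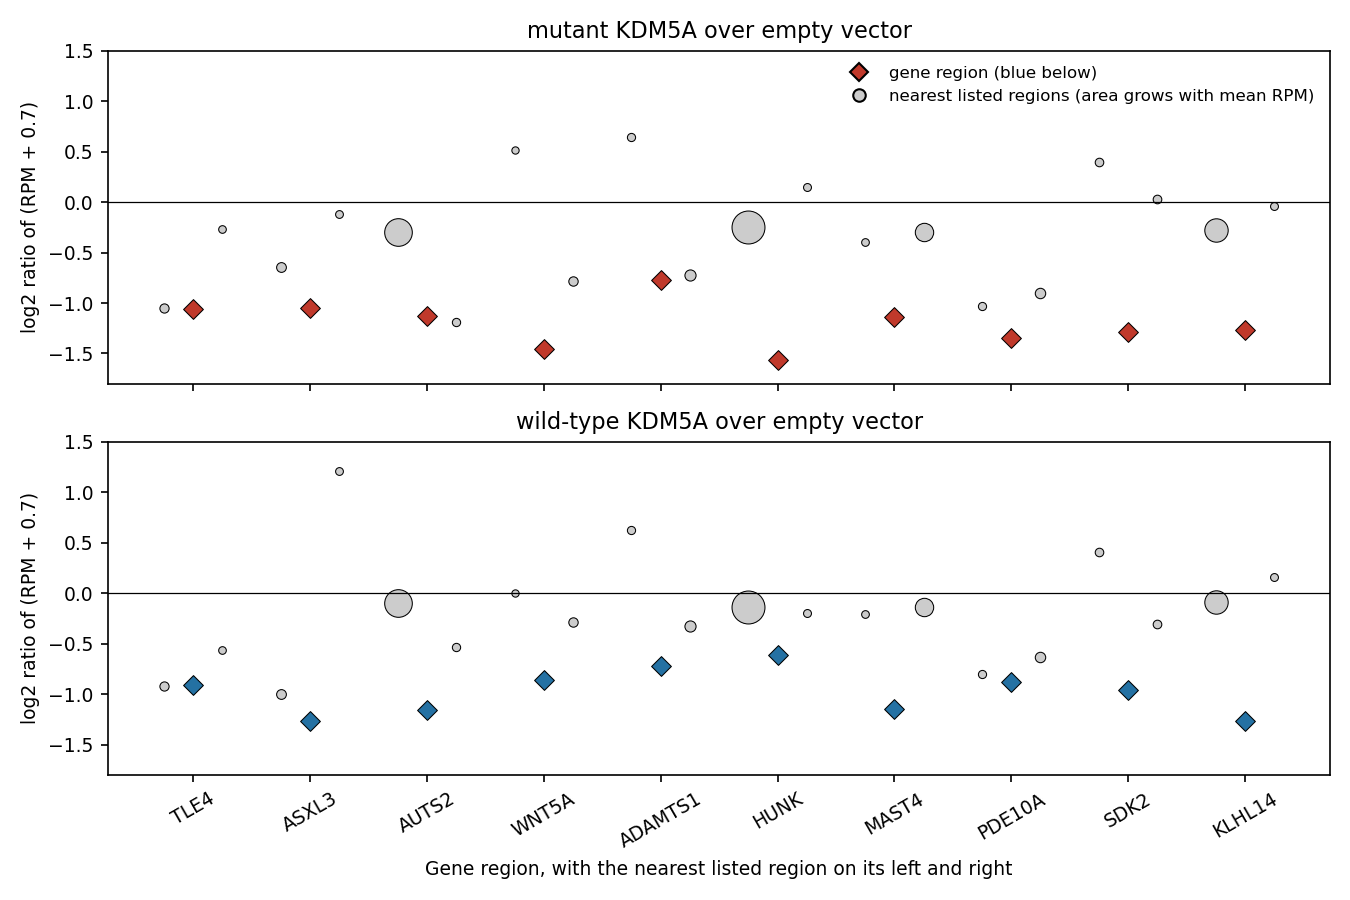
Log2 ratio of RPM plus 0.7 (y axis) for mutant KDM5A (top) and wild-type KDM5A (bottom) over the empty vector at each gene region (diamonds) and at the nearest listed region on its left and right (grey circles, with area growing with mean RPM), by gene (x axis). The diamond lies below 19 of the 20 circles in each panel, counted gene by gene, and the large circles of strong flanks lie between −0.30 and −0.24 at the top and between −0.14 and −0.084 at the bottom. Low ratios to the empty vector chose the genes, so nothing is read from this count. With the 2 flanks summed, the ratio was below that of the flanks in 48% (top) and 48.3% (bottom) of all regions with a flank on either side.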

How the data were processed

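Of the 7 samples, the 3 H3K4me3 libraries (mutant KDM5A, wild-type KDM5A and empty vector, 1 each) were analysed, and the 3 input libraries and the pooled IgG library were not used here. Formaldehyde fixed the chromatin before sonication, per the labels' protocols. The deposited table gives RPM per region, computed by the authors without subtraction of background. Per the submitters' processing notes, the build was hg19 and the tools were deepTools 3.5.6, HOMER, MACS2, MACS and Bowtie2 2.5.4, with no roles stated. Not given in the sources used here are the calling of regions, the counting of reads and the treatment of duplicates. H3K4me4 in 1 column's header (empty vector) was taken to mean H3K4me3.

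Within each library the RPM values were whole multiples of what 1 read is worth, 0.101 for mutant KDM5A, 0.0921 for wild-type KDM5A and 0.0933 for the empty vector, within 0.02 reads for 100% of values. Whole reads and totals of 9906508, 10852411 and 10713021 followed from the steps. The listed regions held 56.9%, 60.7% and 67.0% of those reads, and RPM carries that difference into the ratios. Less mark overall and a difference between library preparations cannot be told apart. PCR copies are not independent molecules, and intervals cover counting error only.

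Folds are plain ratios of RPM with exact conditional (Clopper-Pearson) intervals, and ratios over flanks have conditional odds ratio intervals. Counts past 1.5-fold use log2 of RPM plus 0.7, which understates the change of weak regions. Reads of 1 library per group would compare libraries and not conditions, so no test was made. The intervals of single ratios and the 1.5-fold call were run on simulated data with counting error alone. Those data held no variation between libraries and no pick of genes, and ratios over flanks were not simulated. All 10 genes are named, each by the region of highest mean RPM in its window. Flanks are named where their mean is 5 RPM or more. Those of TLE4, PDE10A, ASXL3 and SDK2 and the left one of ADAMTS1 were chosen after their values were seen. The genes and settings were chosen with earlier results of these data known. Promoter windows and gene order come from RefSeq, GRCh38.p14. Alternatives were other pseudocounts, scalings, thresholds, windows and ranges of neighbours. The software was scipy 1.17.1, pandas 2.3.3, numpy 2.4.6 and matplotlib 3.10.9 under Python 3.11.15.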

Additional observations from a re-analysis of the deposited data

How the results depend on the processing

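The directions of the medians over the 10 genes and of the flank sums held under the alternatives run. For mutant KDM5A over the empty vector the median log2 ratio was −1.34 with a pseudocount of 0.07 RPM, −0.89 with 3.5 RPM, −0.998 when the libraries were scaled to a median ratio of 1 and −1.002 when scaled to equal sums over the regions. For wild-type KDM5A over the empty vector it was −0.75 with 3.5 RPM and −0.80 with either scaling. Scaling to a median ratio of 1 brought the flank sums to 0.938 of the empty vector with the mutant and 0.986 with wild-type KDM5A, and to 0.952 for mutant over wild-type KDM5A. At a 2-fold threshold 9 genes were lower with the mutant, 4 with wild-type KDM5A and 0 for mutant over wild-type KDM5A. Of all 30840 regions, 549, 398 and 200 were past it in the same order. For mutant over wild-type KDM5A 1 gene, in place of 2, was past 1.5-fold with a pseudocount of 3.5 RPM and with either scaling. With scaling to a median ratio of 1, 4.32% of all regions were past 1.5-fold in that comparison. Nothing is read from these counts, since low ratios chose the genes. Each of the 240 values of single genes under an alternative moved by less than its interval, but only other pseudocounts and scalings could move them. Windows of 2 kb, the nearest region, the sum of the window and a limit at the median mean RPM gave the same regions and the same values. Neighbours within 50 kb or 100 kb gave no value, and the nearest regions were taken after seeing the data. No paired analysis was possible because each group has 1 library. Each region held 31 to 397 reads per library, which sets the width of the intervals, and variation between library preparations could not be measured.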
